A study of Drosophila melanogaster with 12 samples.

Results

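The transcripts described here are 100 genes of the adult fly head whose signal was higher around dawn than around dusk on both days of a time course. They were chosen by the measured values. For each gene a dawn minus dusk score was taken as the mean log2 value of hours 24 and 4 minus the mean of hours 12 and 16, in constant darkness and in the light/dark day apart. Genes were ranked by the smaller of their 2 scores, and the first 100 of 5171 ranked genes were taken. The array measured 10844 named genes. Those ranked had a mean of at least 5 on the log2 scale over all 12 arrays, and the clock genes Clk and cry and the Cyp, Gst, Ugt and Obp families were left out by name. The floor used the mean of all 12 arrays; over the 8 arrays outside hours 24 and 4, 99 members still had a mean of at least 5, and CG9921 had 4.95.

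RNA came from whole heads of cn bw flies, so every sample carries the eye colour mutations cinnabar and brown. The constant darkness group has 6 arrays (CT4 to CT24, in hours from subjective lights on), and the light/dark group of the day before has 6 (ZT4 to ZT24, in hours from lights on, with 12 hours of light and 12 of dark). Before that, all flies had spent 3 days in the same light cycle. Each array holds RNA of about 100 to 200 heads, and there was 1 array per time point. Ages and sexes are not given in the sources used here. Constant darkness was always the later day, so lighting and elapsed time cannot be told apart, and nothing says whether samples came from separate cultures, so p-values measure the spread between these arrays. In whole heads, fewer cells of a type and less RNA per cell cannot be told apart.

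In the fly clock, the proteins CLK and CYC switch on per, tim, vri and Pdp1 towards dusk, and PER and TIM later shut CLK and CYC down. VRI holds down a second set of genes, Clk among them, whose transcripts are then highest around dawn. The head holds the compound eyes, brain, muscle, cuticle-forming epidermis and a layer of fat body, all of which add to whole-head RNA.

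Several arrays stood apart. The 3' minus 5' signal of 3 control genes, which grows when RNA is broken, was 2.88 at CT4, 3.32 at ZT24 and 2.58 at ZT16, and lay between 1.49 and 2.13 elsewhere. At CT8 the median of 9 neuron markers was 0.69 below, and that of 13 gut markers 0.45 above, the genes' own means. Photoreceptor markers (6 genes) had medians of -0.81 at ZT12 and -0.76 at ZT16, and muscle markers (11 genes) of -0.29 and -0.33; at the dawn array CT4 these lists had -0.43 and -0.42. The highest mean log2 level was 11.04 among the photoreceptor markers, 13.18 among 11 head fat body markers and 7.20 among the neuron markers, with 6.05 among 8 markers of testis and accessory gland and 7.36 among 8 of ovary.

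In both days the genes were low at hour 16 and high at hour 24, but their course in constant darkness was no single wave. Set against each gene's own mean, the median of the 100 was 0.02 at CT4, -0.13 at CT8, 0.27 at CT12, -0.37 at CT16, 0.12 at CT20 and 0.42 at CT24. In the light/dark day it was 0.05 at ZT4, 0.11 at ZT8, -0.34 at ZT12, -0.23 at ZT16, -0.19 at ZT20 and 0.30 at ZT24. The low arrays of the light/dark day followed one another, whereas in constant darkness CT16 was lowest and the array before it, CT12, was among the highest. The highest of the 12 values fell in CT24 for 34 genes and in ZT24 for 39, and the lowest fell in CT16 for 25, CT8 for 20 and ZT12 for 22.

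**Figure D1:**
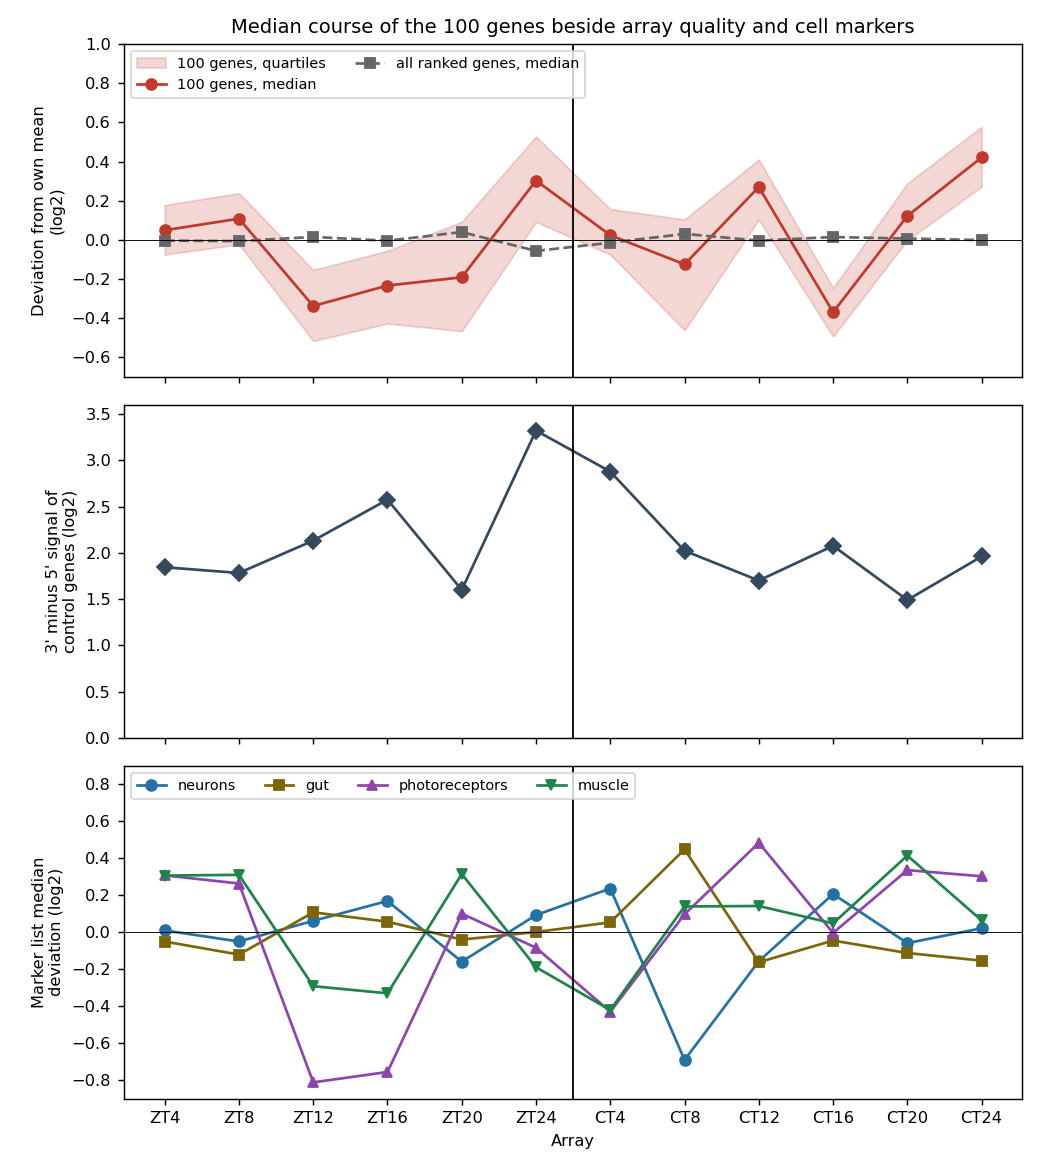
Top, deviation from the gene's own mean over 12 arrays (log2): median and quartiles of the 100 genes, and median of all 5171 ranked genes (dashed). Middle, the control genes' 3' minus 5' signal (log2); bottom, median deviation of 4 marker lists (log2). Arrays run in order of collection, with constant darkness right of the line; the 100 genes are lowest at CT16 (-0.37) and highest at CT24 (0.42), and the control signal is highest at ZT24 (3.32).

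Full separation of dawn from dusk arrays was more common in the light/dark day than in constant darkness, but a peak at dawn was not. Within each day, the highest array was CT24 in 63 genes and CT4 in 10, and ZT24 in 54 and ZT4 in 13. The lowest was CT16 in 62, CT8 in 31 and CT12 in 3, and ZT12 in 39, ZT20 in 37 and ZT16 in 19. Both dawn arrays exceeded both dusk arrays in 16 of the 100 genes in constant darkness (5.72% of ranked genes) and in 78 in the light/dark day (18.6% of ranked genes). CT12 was above CT4 in 78 of the 100 (52.2% of ranked genes), while ZT12 was above ZT4 in 9 (52.5%). CT16 was below CT24, CT4 and CT12 in 91 (18.8%). CT24 was above CT4 in 83 (51.3%) and ZT24 was above ZT4 in 72 (42.9%). These orders use arrays of the score and describe what the choice produced. After a repeated quantile normalization, CT12 was above CT4 in 56 of the genes (46.2% of ranked genes) and both dawn arrays exceeded both dusk arrays in constant darkness in 31 (7.19%). Membership changed with the arrays left out of the score, which alters the rule itself. Scores without ZT16 chose 76 of the 100 again, and without ZT24 and CT4 19. In settings added after seeing the data, scores without CT16 chose 24 again, without CT12 33 and without CT24 38.

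Of the 100, 8 genes had both dawn arrays above both dusk arrays on both days (0.735% of ranked genes). This order too uses arrays of the score and describes what the choice produced. The 8 genes were named after their values were seen. They are Jhbp13, the acyltransferase gene nes, the diacylglycerol acyltransferase gene mdy and the nucleoside transporter gene Ent1. The others are Dip-B, the acyl-CoA synthetase gene bgm, qkr58E-3 and the complex I gene ND-MNLL. Some margins were small. The gene qkr58E-3 had 5.414 at ZT4 and 5.404 at ZT12, mdy 5.576 at ZT4 and 5.535 at ZT16, and Jhbp13 8.283 at CT4 and 8.248 at CT12.

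**Figure D2:**
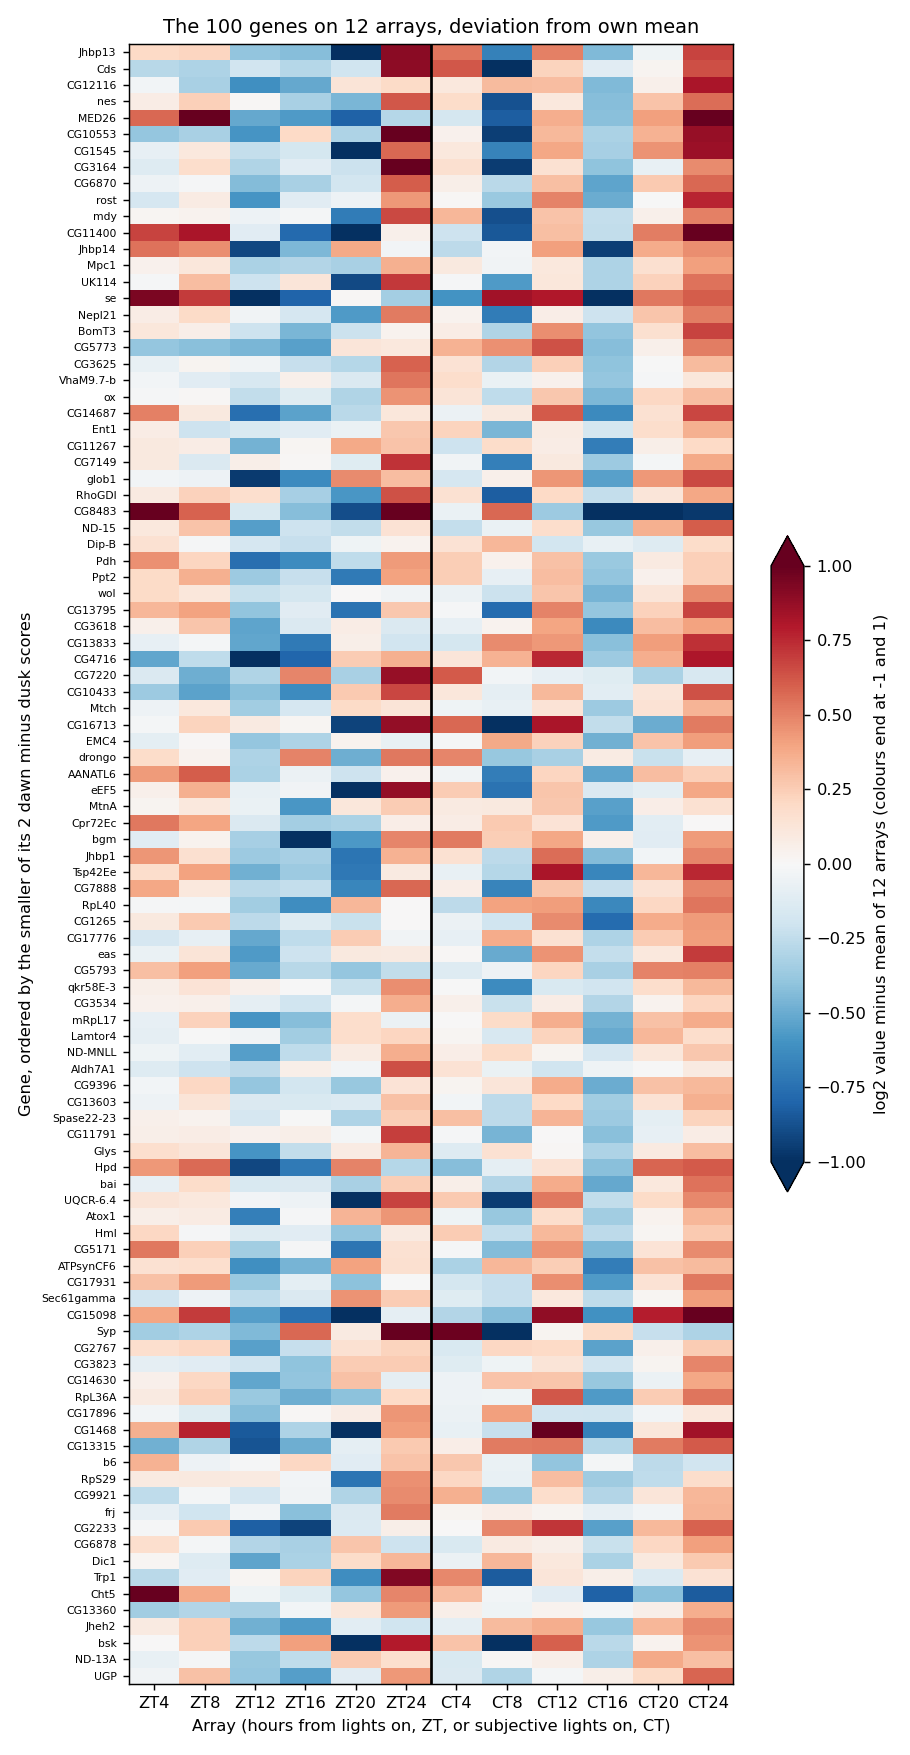
Deviation of each of the 100 genes (rows, ordered by the smaller of their scores) from its own mean on 12 arrays (columns), in log2 units with colours ending at -1 and 1. Blue is below and red above the mean; 5 genes are above their mean at CT16 and 8 at ZT12, against 94 at CT24 and 90 at CT12.

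Scores had a median of 0.26 in constant darkness (0.20 to 0.58) and of 0.44 in the light/dark day (0.21 to 2.35), beside medians of -0.01 and -0.02 over all ranked genes. The score in constant darkness was the smaller one for 83 genes (48.9% of ranked genes). Over all ranked genes the scores spread more widely in the light/dark day (quartiles -0.16 to 0.17) than in constant darkness (-0.11 to 0.08). A score above 0 on both days, which the rule required in effect, was seen in 19.5% of ranked genes. The last genes taken were the Jun kinase gene bsk (smaller score 0.205), the complex I gene ND-13A (0.1995) and the UDP-glucose pyrophosphorylase gene UGP (0.199). The first ones missed were Cen (0.196), alrm (0.196) and CG8860 (0.1955).

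**Figure D3:**
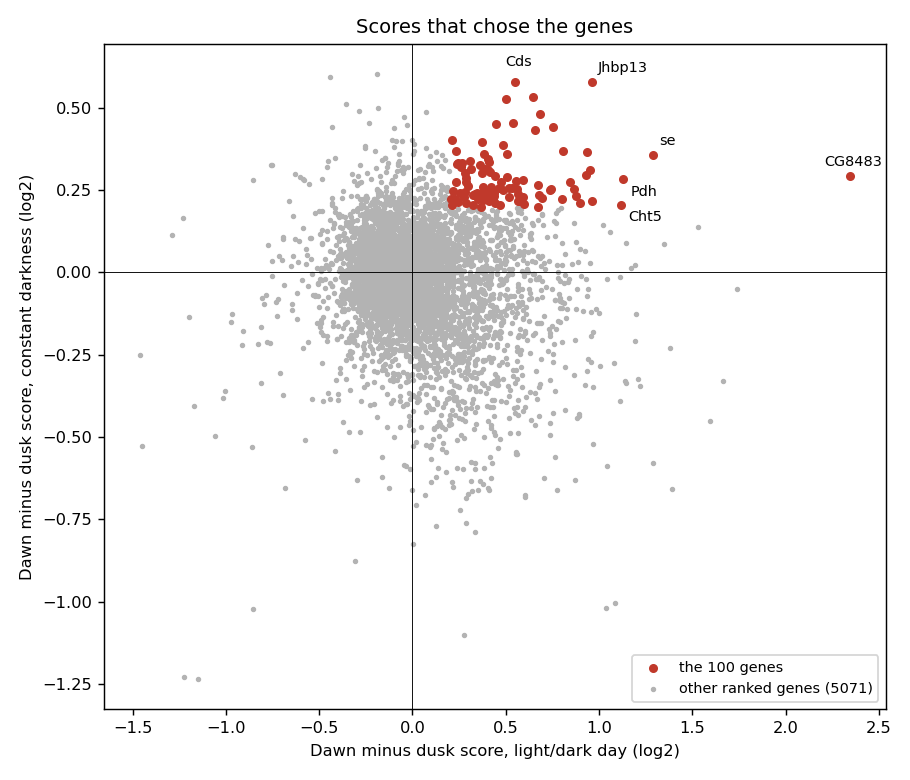
Dawn minus dusk score in constant darkness (vertical, log2) against that in the light/dark day (horizontal, log2), 1 point per gene, for the 100 genes and the other 5071 ranked genes. The chosen genes fill the upper right corner, and CG8483 stands apart with 0.29 in constant darkness and 2.35 in the light/dark day.

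Genes of the juvenile hormone binding protein family, named for carriers of this insect hormone in haemolymph, included the first-ranked member. Jhbp13 had 8.28, 7.07, 8.25, 7.30, 7.70 and 8.43 at CT4 to CT24 and 7.95, 7.96, 7.35, 7.32, 6.69 and 8.65 at ZT4 to ZT24. Its scores were 0.58 and 0.96, a dawn over dusk ratio of 1.49 in constant darkness and 1.95 in the light/dark day. Its dawn and dusk arrays did not overlap on either day, but the lowest values of each day stood at CT8 and ZT20. Jhbp14 read 8.20, 8.44, 8.87, 7.52, 8.83 and 8.93 in constant darkness and 9.004, 8.93, 7.55, 8.02, 8.85 and 8.44 in the light/dark day. Its dusk array CT12 was above its dawn array CT4, so dawn and dusk overlapped in constant darkness. Jhbp1 had scores of 0.25 in constant darkness and 0.75 in the light/dark day, with its highest value at CT12. In the gene order of the reference, Jhbp14 and Jhbp13 were next to each other, and the complex I gene ND-15 and CG3164 had 2 genes between them.

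Enzymes of eye pigment and visual chromophore gave the largest light/dark scores among the genes grouped by role. Pdh encodes a retinol dehydrogenase. The gene se encodes an enzyme of the red drosopterin pigments, which is itself an omega-class glutathione transferase not caught by its name. Pdh read 9.54, 9.34, 9.59, 8.92, 9.38 and 9.54 in constant darkness and 9.75, 9.51, 8.54, 8.67, 9.04 and 9.72 in the light/dark day. In constant darkness only CT16 was low, while in the light/dark day ZT12 and ZT16 were both low, with scores of 0.28 and 1.13. The gene se read 6.45, 7.88, 7.84, 5.54, 7.57 and 7.65 in constant darkness and 7.99, 7.74, 5.86, 6.25, 7.06 and 6.70 in the light/dark day. Both dawn arrays, CT4 and CT24, were below the dusk array CT12, and its score of 0.36 in constant darkness came from the low CT16. Without CT16 its smaller score was -0.79. The 6 ranked photoreceptor markers had median scores of -0.20 in constant darkness and 0.88 in the light/dark day, and their part in the curves of se and Pdh was not tested.

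Enzymes of membrane and storage lipids formed a group of 6, with median scores of 0.33 in constant darkness (0.21 to 0.58) and 0.47 in the light/dark day (0.38 to 0.86). Cds makes CDP-diacylglycerol, the precursor of phosphatidylinositol used in phototransduction. It read 7.64, 5.996, 7.25, 6.91, 7.05 and 7.67 in constant darkness and 6.75, 6.72, 6.83, 6.74, 6.83 and 7.92 in the light/dark day. In the light/dark day Cds was flat but for ZT24, and its score of 0.55 came from that array. The gene mdy, which makes triacylglycerol, read 5.89, 4.67, 5.84, 5.31, 5.61 and 6.06 in constant darkness and 5.58, 5.59, 5.503, 5.54, 4.86 and 6.21 in the light/dark day. The values of mdy were lowest at CT8 and ZT20, outside the dusk hours. The gene nes had scores of 0.53 and 0.50, and bgm, whose enzyme activates very long fatty acids, had 0.26 and 0.86. The ethanolamine kinase gene eas and the acyltransferase gene frj had scores of 0.24 and 0.21 in constant darkness. In a list of 20 ranked lipid genes mdy was the 1 member, and the list's median scores were -0.08 in constant darkness and 0.22 in the light/dark day.

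The mitochondrial group held 10 genes with median scores of 0.24 in constant darkness (0.20 to 0.36) and 0.47 in the light/dark day (0.30 to 0.69). Mpc1, a subunit of the carrier that brings pyruvate into mitochondria, read 8.63, 8.50, 8.63, 8.22, 8.69 and 8.94 in constant darkness and 8.57, 8.64, 8.21, 8.24, 8.21 and 8.89 in the light/dark day. Its highest values were the hour 24 arrays of both days. The complex III genes ox and UQCR-6.4, the complex I genes ND-15, ND-MNLL and ND-13A, and ATPsynCF6, a coupling factor of ATP synthase, were also members. UQCR-6.4 read 8.92 at CT8 and 8.77 at ZT20 and between 9.62 and 10.54 at all other hours, whereas ATPsynCF6 read 9.67 at CT8 and 9.74 at ZT20 and was lowest at CT16 with 8.64. Of 53 ranked respiratory chain genes, found by a name pattern chosen after the members were seen, 5 were members, with list medians of -0.10 in constant darkness and 0.38 in the light/dark day. A shorter list of 13 such genes held no member. The 9 ranked muscle markers, from a tissue rich in mitochondria, had median scores of -0.41 in constant darkness and 0.55 in the light/dark day, and their part in these curves was not tested. The mean in constant darkness exceeded that in the light/dark day in 10 of the 10 mitochondrial genes as deposited (52.7% of ranked genes), and in 5 after quantile normalization (46.9%).

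The protein synthesis members were RpL40, RpL36A, RpS29 and the elongation factor gene eEF5, with a median score of 0.24 in constant darkness and 0.50 in the light/dark day. RpL36A read 9.69, 9.69, 10.36, 9.17, 9.99 and 10.27 in constant darkness and 9.82, 9.97, 9.37, 9.25, 9.33 and 9.93 in the light/dark day. Its highest value was at CT12 and its lowest at CT16, 4 hours apart. Of 30 ranked ribosomal protein genes 3 were members, and the list's median scores were -0.00 in constant darkness and 0.31 in the light/dark day. Of 56 ranked mitochondrial ribosomal protein genes only mRpL17 was one. Another 6 members act where proteins enter the endoplasmic reticulum and fold, Sec61gamma of the translocon among them, with median scores of 0.29 in constant darkness and 0.23 in the light/dark day.

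Metal and oxygen binding proteins gave 3 members. The haemoglobin gene glob1 read 7.88, 8.11, 8.50, 7.51, 8.49 and 8.72 in constant darkness and 8.03, 8.004, 7.10, 7.43, 8.53 and 8.37 in the light/dark day. Hours 20 and 24 were high on both days, and CT12 was as high as CT20. The metallothionein gene MtnA was low at CT16 (10.20) and ZT16 (10.16) and between 10.68 and 11.02 otherwise, and the copper chaperone gene Atox1 had scores of 0.23 in constant darkness and 0.59 in the light/dark day. In the list of 10 ranked sugar and glycogen genes, UGP and the glycogen synthase gene Glys were members, with list medians of -0.02 in constant darkness and 0.64 in the light/dark day.

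Cht5, Cpr72Ec and CG8483 had lower values in constant darkness than in the light/dark day at both dawn hours. Other members, Pdh among them, did so too. The chitinase gene Cht5 read 7.49, 7.15, 7.06, 6.37, 6.76 and 6.35 in constant darkness and 8.76, 7.56, 7.13, 7.06, 6.79 and 7.66 in the light/dark day. Its value at CT24 was the lowest of all 12, so its score of 0.21 in constant darkness came from CT4. The 59 ranked cuticle protein genes had median scores of 0.01 in constant darkness and -0.14 in the light/dark day, and 1 of them, Cpr72Ec, was a member. Cpr72Ec read 7.26, 7.44, 7.32, 6.61, 7.08 and 7.18 in constant darkness and 7.71, 7.58, 7.04, 6.84, 6.87 and 7.25 in the light/dark day. CG8483 read 6.55, 7.19, 6.25, 5.36, 5.45 and 5.65 in constant darkness and 8.66, 7.21, 6.47, 6.19, 5.73 and 8.69 in the light/dark day. Its dawn over dusk ratio was 1.22 in constant darkness and 5.09 in the light/dark day, and its dawn arrays CT4 and CT24 lay far below ZT4 and ZT24.

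**Figure D4:**
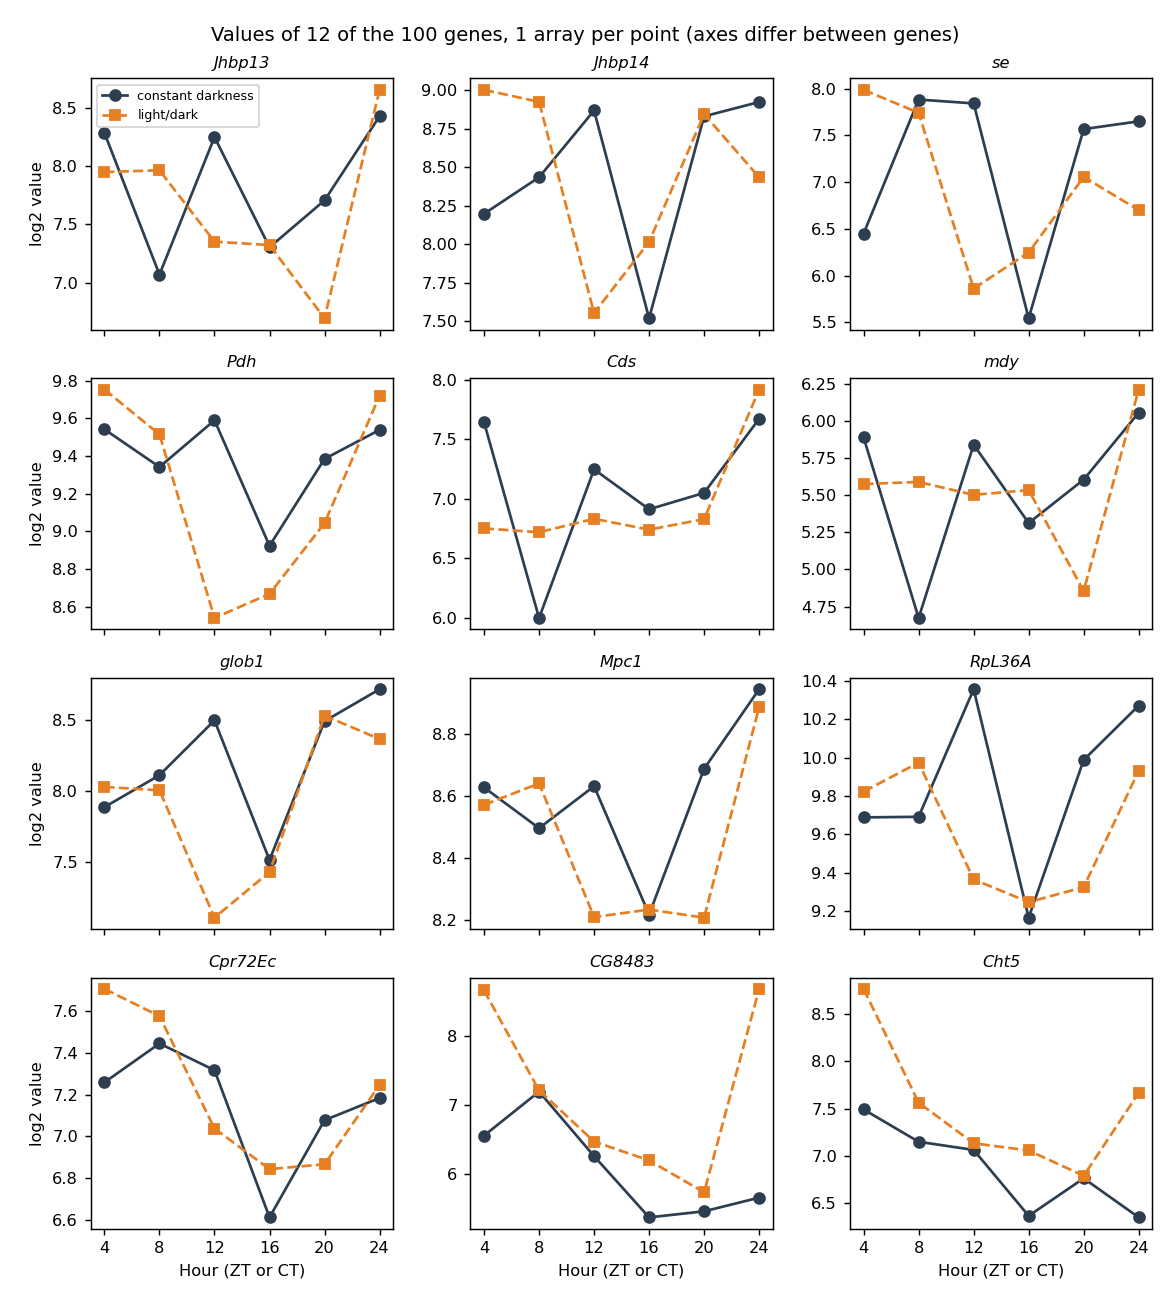
log2 values of 12 of the 100 genes against hour (CT or ZT), 1 array per point, in constant darkness (solid, circles) and the light/dark day (dashed, squares); vertical axes differ between genes. CT16 is low in most panels while CT12 is high, as for RpL36A with 10.36 at CT12 and 9.17 at CT16; CG8483 is highest at ZT4 and ZT24.

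Other genes with large smaller scores were CG12116 (0.53), the Mediator subunit gene MED26 (0.48), CG10553 (0.45), CG1545 (0.45), CG3164 (0.44), CG6870 (0.43), the myoblast fusion gene rost (0.39), CG11400 (0.37) and UK114 (0.36). MED26 read 5.52, 4.88, 6.06, 5.28, 6.11 and 6.78 in constant darkness and 6.27, 6.85, 5.19, 5.13, 4.89 and 5.41 in the light/dark day. Its highest array was ZT8 in the light/dark day and CT24 in constant darkness. A second MED26 probe set, with a mean of 4.91, had scores of -0.14 in constant darkness and 0.10 in the light/dark day. Of 7 members with another probe set, 2 had one above the floor, and both were positive on both days: ox (0.30 and 0.54) and ND-MNLL (0.12 and 0.37).

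Among lists of known genes, 2 of 14 ranked head oscillators recalled from earlier time courses were members, CG10553 and Pdh. The haemocyte gene Hml was 1 of 6 ranked haemocyte markers and the only 1 of them with a score above 0 on both days. The list's median scores were -0.09 in constant darkness and 0.04 in the light/dark day. None of 6 ranked core clock genes, 15 phototransduction genes, 10 glycolysis genes or 28 proteasome genes was a member. Clk and cry belong to the core clock list but were left out by name. Of all 5171 ranked genes 100 were members, so an empty list of these sizes is no result about its genes. Of the genes left out by name, 10 had a smaller score above that of the last gene taken, led by Cyp6a20 (smaller score 0.43), Ugt35B1 (0.41), Cyp6a17 (0.28), Obp56e (0.27), Obp56g (0.27) and GstZ2 (0.24).

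Hours 8 and 20 did not enter the scores, and the order of these hours was opposite on the 2 days for most of the set. CT8 was above CT20 in 26 of the 100 genes (52.2% of ranked genes), with a median difference of -0.29 (ranked genes 0.01). ZT8 was above ZT20 in 67 (34.5%), with a median of 0.28 (ranked genes -0.05). Hour 8 was above hour 20 on both days in 11 genes (15.4%) and below it on both days in 17 (28.5%). CT8 is the array with the low neuron and high gut marker medians, whose part in this order was not tested. The members' median for hour 8 minus hour 20 was -0.02 with all arrays, 0.20 without CT8 and -0.24 without ZT8. Each of these omissions leaves hour 8 to the other day alone, so the shifts do not test the part of the markers.

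**Figure D5:**
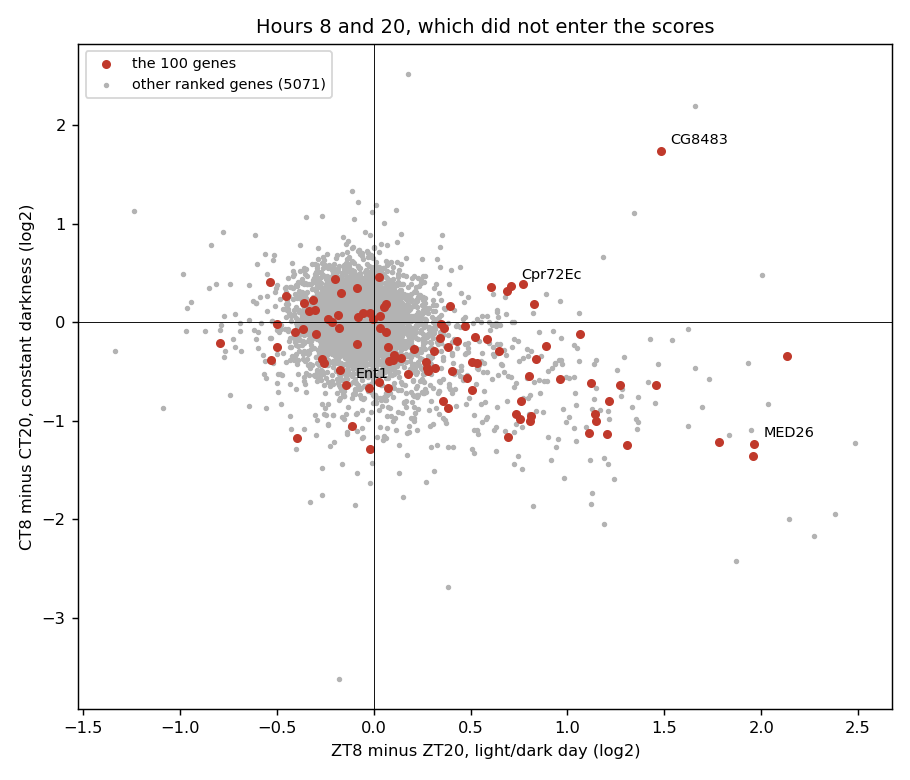
CT8 minus CT20 (vertical, log2) against ZT8 minus ZT20 (horizontal, log2), 1 point per gene, for the 100 genes and the other 5071 ranked genes. Most of the 100 lie right of 0 (67 genes) and below 0 (CT8 is above CT20 in 26), and CG8483 is high on both axes.

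With hour as a factor and day as a term, limma called no probe set at an adjusted p of 0.05 for hour 8 minus hour 20 (0% of 13966), and no member; the smallest adjusted p was 0.9999. At an unadjusted p under 0.05, 3 members were higher at hour 8 (0.271% of ranked genes) and 3 lower (0.716%). With 1 array per time point, the spread in this fit was the disagreement between the 2 days at the same hour. Opposite orders on the 2 days therefore counted as spread. The median standard error was 0.25 for members and 0.17 for ranked genes. The difference was 0.54 ± 0.18 (SE, 12 arrays) for Cpr72Ec and 0.51 ± 0.20 for RpS29, and both genes were higher at hour 8 on both days. It was -0.39 ± 0.14 for Ent1 and -0.33 ± 0.13 for Lamtor4, a subunit of the lysosomal Ragulator complex, which were lower on both days. None of these 4 passed the adjusted test. Without ZT16, ZT24, CT4 and CT8, a setting added after seeing the data that leaves 1 residual degree of freedom, limma called 8 probe sets (0.0573% of 13966), 1 of them a member, CG1468.

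The mean level of a day did not enter the scores either. It was higher in constant darkness in 73 of the 100 genes (52.7% of ranked genes), with a median difference of 0.09 (ranked genes 0.01) and a range of -1.08 to 0.68. After quantile normalization it was higher in 61 genes (46.9% of ranked genes). The fit had a 24-hour cosine and sine and day as terms, so departures from a single wave counted as spread. In it, limma called no member and no probe set at an adjusted p of 0.05 (0% of 13966), with a smallest adjusted p of 0.92977. At an unadjusted p under 0.05, 7 members were higher in constant darkness (2.67% of ranked genes) and 3 lower (1.84%). Without ZT16, ZT24, CT4 and CT8 the members' median difference was 0.39, and limma called 13 probe sets over 8 arrays (0.0931% of 13966), 2 of them members and both higher in constant darkness: Jhbp13 by 0.94 ± 0.11 (SE; adjusted p = 0.03918) and bsk by 0.92 ± 0.11 (adjusted p = 0.039554). Those 8 arrays hold CT24 and CT12 but not ZT24 and CT4, so hours of the scores are unequal between the days. The values for these 2 genes are therefore not free of the choice. With all 12 arrays Jhbp13 differed by 0.18 ± 0.28 (SE) and bsk by -0.04 ± 0.35. With only CT12 left out, the members' median difference was -0.01. With all arrays, the differences were 0.65 ± 0.18 (SE, 12 arrays) for CG13315, 0.51 ± 0.16 for bgm, 0.53 ± 0.18 for CG5773 and -1.08 ± 0.36 for CG8483.

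The curves of the days were also compared in the component that peaks at hour 8, which is at right angles to the score. Expressed as a fitted hour 8 minus hour 20 difference, constant darkness minus light/dark, it had a median of -0.13 over the members (ranked genes 0.02) and was below 0 in 63. limma called 4 probe sets at an adjusted p of 0.05 (0.0286% of 13966), none of them a member. At an unadjusted p under 0.05, 1 member was higher in constant darkness (1.32% of ranked genes) and 4 lower (2.32%). For CG11400 the difference was -2.86 ± 0.59 (SE, 12 arrays; limma adjusted p = 0.43483) and for MED26 -2.59 ± 0.76 (adjusted p = 0.99878). CG11400 read 6.03, 5.39, 6.53, 5.99, 6.75 and 7.23 in constant darkness and 6.91, 7.05, 6.12, 5.46, 5.09 and 6.29 in the light/dark day, so its high hours were CT20 and CT24 in constant darkness and ZT4 and ZT8 in the light/dark day. The same difference was 1.06 ± 0.42 for CG5773 and -2.17 ± 0.87 for CG15098.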

How the data were processed

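The authors deposited 1 log2 value per probe set and array, made with RMA per the submitters' processing notes; the log base was inferred from the values (1.715 to 13.515), and no coordinates are given because no source used here names the build of the array. RMA compresses changes of weakly expressed genes. Of 14010 probe sets, 44 controls were set aside and 13966 tested. The supplied annotation gave 12443 probe sets 1 gene, 327 several and 1196 none; 12394 names were found in a RefSeq table (Release 6 plus ISO1 MT), used for names and gene order only. Each gene took the values of its brightest probe set on average.

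Tests used limma 3.58.1 in R 4.3.3, with p-values adjusted by Benjamini-Hochberg across the whole table. The hour and mean level fits were also run on simulated flat profiles with large planted changes, which does not test smaller ones. The members and lists were chosen with earlier results of these data known, and role groups after the names were seen. Genes named are the 16 with the largest smaller score, list members, the 4 of smallest p per test, those at the boundary, neighbours, other probe sets, genes left out by name, and up to 12 more by role. The number of arrays limits the precision. Alternatives were a repeated quantile normalization, 16 added on the linear scale, other floors, another probe set rule and arrays left out.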

Additional observations from a re-analysis of the deposited data

Results flagged for a closer look

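In 13 of 200 day curves (100 genes on 2 days, 6 arrays each), the highest or lowest array lay far from the nearest of the others relative to the curve's range; chance marks about 1 in 20 curves that were not selected. These genes were chosen for high hours 24 and 4 and low hours 12 and 16, and all 13 marks fell on arrays of those hours, so that rate does not apply to them. In constant darkness, Pdh was low at CT16 (8.92, others 9.34 to 9.59) and so was MtnA (10.20, others 10.81 to 11.02). CG7220 was high at CT4 (9.58, others 8.65 to 8.94). The acyltransferase gene frj (7.45) and CG13360 (7.90) were high at CT24. In the light/dark day 8 genes were high at ZT24, the array with the highest 3' minus 5' control signal (3.32): Cds (7.92, others 6.72 to 6.83), CG3164 (7.99, others 6.47 to 6.94), CG3625 (7.07), the proton pump subunit gene VhaM9.7-b (8.07), CG7149 (6.28), Aldh7A1 (7.54), CG11791 (5.83) and CG9921 (5.53). The part of RNA quality in these values was not tested.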

How the results depend on the processing

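Membership fell most when certain arrays were left out of the score, which alters the rule itself. Of the 100 genes, 80 were chosen again after quantile normalization, 92 with 16 added on the linear scale, 97 with the probe set of highest variance, 78 and 77 with floors of 4 and 6, and 76 without ZT16. Scores without ZT24 and CT4 chose 19 again; scores without CT16 (24), CT12 (33) or CT24 (38) were added after seeing the data, and the fall follows from the arrays removed from the score. limma called no member for hour 8 minus hour 20 or the component peaking at hour 8 under any planned setting. For the mean level it called none under the planned settings except the one without ZT16, ZT24, CT4 and CT8. There it called 2 members among 13 probe sets, Jhbp13 and bsk, with 4 residual degrees of freedom. Hours of the scores were then unequal between the days. Leaving the same 4 arrays out of hour 8 minus hour 20, a setting added after seeing the data, left ZT8 as the only hour 8 array. The members' median was then 0.33 and CG1468 had 2.22, with 1 residual degree of freedom. The cause of these shifts was not tested. The members' median hour 8 minus hour 20 ran from -0.24 (without ZT8) to 0.20 (without CT8) when 1 array was left out, and the median day difference from -0.01 (without CT12) to 0.15 (without CT16). With the days paired by hour (hour as a factor), 0 members and 0 probe sets were called for the mean level, with a smallest adjusted p among members of 0.94546 by limma and a median of 0.09.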
